A study of Mus musculus with 65 samples.

Results

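The genes described here encode the mouse ISG15 conjugation system and the interferon-induced poly(ADP-ribose) polymerases (PARPs). They are Isg15, Uba7, Ube2l6, Herc6, Usp18, Parp9, Dtx3l, Parp10, Parp12 and Parp14, which were taken by symbol, 10 of the 23755 genes in the deposited count table. The choice applied no cutoff to measured values, though earlier results of these data were known when it was made.

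ISG15 is a ubiquitin-like protein that interferon induces and that is joined to other proteins by its own enzyme cascade. UBA7 activates it, UBE2L6 carries it, HERC6 is the main ligase in the mouse, and USP18 removes it from its substrates and also acts as a brake on signalling at the type I interferon receptor. PARP10, PARP12 and PARP14 attach single ADP-ribose units to proteins, while PARP9 works in a complex with the ubiquitin ligase DTX3L, and all of these are known as interferon-stimulated genes in macrophages and dendritic cells.

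Polyadenylated RNA was sequenced from mouse bone marrow-derived dendritic cells (BMDCs) on the C57BL/6 background and from RAW264.7, a macrophage line that the labels give as BALB/c. The 65 libraries form 19 groups in 3 experiments. Unstimulated BMDCs were wild type (WT), Suv39h1KO (lacking a histone H3 lysine methyltransferase), IfnarKO (the type I interferon receptor) or both (double knockout, DKO), with 3 libraries each. In the LPS experiment, WT, MyD88KO and TrifKO BMDCs, which lack one or the other adaptor of TLR4, the receptor for bacterial lipopolysaccharide (LPS), were taken at 0, 2 and 4 h of LPS at 100 ng/mL. WT had 6, 5 and 6 libraries at the 3 times, and each knockout had 3 per time. RAW264.7 cells carried a control guide RNA (gCtrl), guide 1 or guide 2, at 0 or 2 h of LPS with 3 libraries per group. Their LPS dose and the targets of both guides were not given in the labels, which call the same samples dendritic cells in their titles. All RAW264.7 libraries were labelled WT for Suv39h1, Ifnar, MyD88 and Trif. The series states 3 biological replicates per condition, but the labels do not tie libraries to animals or cultures, so the p-values measure the spread between these libraries. Replicates are numbered by the cohort in the labels. In the LPS experiment the library numbers fall in a low and a high range, called here the low set and the high set. WT was in both sets, all MyD88KO libraries were in the low set and all TrifKO libraries in the high set, and up to 2 WT libraries share a cohort number and time.

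Sequence is shown for Isg15, because it was the gene with the largest rise after LPS and the only one of the promoters looked at to hold a full double GAAA element, the core of the interferon-stimulated response element. Promoters ran from 250 bases before to 50 bases after the start in RefSeq's GRCm38.p6 table, which has entries for 6 of the 10 genes (Isg15, Uba7, Ube2l6, Herc6, Parp12 and Dtx3l). The motif searched was GAAANNGAAA on both strands. The stretch below lies just upstream of the first exon of Isg15, on the minus strand at chr4:156200862-156200921, 5′ to 3′, and capitals mark 3 overlapping matches, which start 78, 72 and 66 bases before the start of the gene.
Isg15 promoter: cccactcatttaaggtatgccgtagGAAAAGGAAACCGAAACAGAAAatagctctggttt
Of all 32851 promoters of the same length, 1131 (3.44%) hold the motif at least once. A match is a description of the letters and not evidence of a bound factor.

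The genes lie on 6 chromosomes of mm10 (GENCODE vM21 annotation). Isg15 spans chr4:156199424-156200818, Uba7 chr9:107975505-107984060, Ube2l6 chr2:84798828-84810335 and Parp10 chr15:76231174-76243441. Herc6 (chr6:57581000-57664632), Usp18 (chr6:121245906-121270917) and Parp12 (chr6:39086410-39118349) share chromosome 6 at distances of many megabases. Parp14 (chr16:35832874-35871544, minus strand), Dtx3l (chr16:35926511-35939151, minus strand) and Parp9 (chr16:35938470-35972605, plus strand) are neighbours on chromosome 16, with 54966 bases between Parp14 and Dtx3l. Parp9 and Dtx3l run in opposite directions and overlap head to head by 458 exonic bases, which is 9.40% of the exonic bases of Parp9 and 8% of those of Dtx3l. Whether reads were counted by strand was not given in the sources used here, so a small part of the counts of these 2 genes cannot be assigned to one of them. Parp10 shares 205 exonic bases (4.80%) with Plec on the same strand.

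Total counts per library ran from 36879570 to 95292653 (median 54709838), and the lowest count of any of the 10 genes in any library was 65. All 10 passed the filter on low counts in each experiment, where 14386, 14475 and 13078 genes were tested. The 8 dendritic cell markers were all at a median of at least 1 CPM (counts of a gene per 1000000 counts of its library) in BMDCs, with sums of 14375 to 28502 CPM. Macrophage markers were also present (7 of 7, 3327 to 18004 CPM), and so were some markers of granulocytes (3 or 4 of 5, 64.7 to 1173 CPM), mast cells (3 of 5, 28.4 to 173 CPM) and plasmacytoid dendritic cells (2 of 4, 116 to 704 CPM). In the unstimulated experiment 3 of 4 stromal markers also passed that level (sums of 1.26 to 18.9 CPM), against 0 of 4 in the LPS experiment (0.496 to 9.02 CPM). B cell and T or NK cell markers did not pass it in either (0 of 4 and 0 of 5). In RAW264.7 cells, 2 of 8 dendritic cell markers and 5 of 7 macrophage markers passed that level, with H2-Aa, Flt3, Ccr7 and Cd209a at a median of 0. Bst2 and Tcf4 passed it in this line too, with plasmacytoid sums of 77.0 to 120 CPM. In a mixed culture, fewer cells of a type and less RNA per cell cannot be told apart.

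The genotype labels were checked on the targeted transcripts, though the deleted part of each gene was not given and a transcript outside it checks nothing. Suv39h1 was at a mean of 0.216 CPM in Suv39h1KO and 0.224 CPM in DKO against 50.9 in WT. Myd88 at 0 h was at 58.6 CPM in MyD88KO against 89.5 in WT (log2 fold change -0.66 ± 0.09 SE, adjusted p = 8.04e-05 by edgeR's quasi-likelihood test) and 87.0 in TrifKO. After 4 h of LPS it was at 88.8 CPM in MyD88KO, 321 in WT and 137 in TrifKO, so at that time it was lower than in WT in TrifKO too (-1.60 ± 0.09, adjusted p = 1.95e-13). Ifnar1 was only slightly lower in IfnarKO (145 against 182 CPM, log2 fold change -0.30 ± 0.11, adjusted p = 1). Ticam1, which encodes Trif, was not lower in most libraries labelled TrifKO. It was at 35.4, 35.1 and 37.1 CPM at 0 h, 43.03, 48.5 and 2.98 CPM after 2 h of LPS, and 42.3, 36.5 and 2.46 CPM after 4 h, so only the cohort 3 libraries at 2 and 4 h were low. Xist, expressed in female cells, was at or near 0 in all libraries of the unstimulated experiment. In the LPS experiment, WT and MyD88KO had 470 to 1324 CPM in cohorts 1 and 2 and values at or near 0 in cohort 3. Sex thus differed between libraries of a group, and its part was not tested. In TrifKO, Xist was at 0, 1289 and 1184 CPM at 0 h, 1162 in cohort 2 at 2 h and 1232 in cohort 1 at 4 h. It was at or near 0 in the other TrifKO libraries, so there one cohort number did not stand for one source of cells. Results for the libraries labelled TrifKO are therefore given with and without cohort 3. Leaving out cohort 3 also removes its 0 h library and keeps only libraries with Ticam1 at 35.1 to 48.5 CPM. It shows how far results depend on that cohort and does not check the genotype label.

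Levels are given as CPM, and log2 fold changes come from a fit scaled by trimmed means (TMM), so the 2 scales differ where a few genes take up much of a library. Scaling by library totals in place of TMM, an alternative added after seeing the data, moved the median of all genes by -0.38 at 2 h and -0.64 at 4 h of LPS in WT (log2), by -0.22 and -0.35 in MyD88KO, by -0.26 and -0.23 in TrifKO, and by -0.17 to -0.18 in RAW264.7. Between genotypes it moved by 0.21 and 0.34 for MyD88KO against WT at 2 and 4 h and by 0.38 for TrifKO against WT at 4 h. Among all genes at 4 h in WT, 4347 were higher and 5079 lower with TMM, against 1994 and 9481 with library totals. With library totals, 5910 genes were higher and 854 lower in MyD88KO than WT at 4 h (1990 and 2117 with TMM), and 6592 higher and 1108 lower in TrifKO (2556 and 2254 with TMM). No called change of the 10 genes turned its direction under that scaling, and the calls it ended are named beside the results.

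Before LPS, expression per kilobase of exon in WT BMDCs was highest for Usp18, at a mean of 42.4 CPM per kb, followed by Isg15 at 26.96, Ube2l6 at 20.7, Parp14 at 18.99, Parp9 at 18.8 and Dtx3l at 15.4. Parp12 (12.8), Uba7 (11.1) and Parp10 (8.77 CPM per kb) came next, and Herc6 was lowest at 5.33. Neighbours in that order overlapped in their libraries except Parp10 and Herc6. At 4 h of LPS, Isg15 led with 1975 CPM per kb, ahead of Usp18 at 396 and Parp14 at 259, and Uba7 was lowest at 38.2. Ube2l6 and Parp12, Parp12 and Parp9, Herc6 and Parp10, and Parp10 and Uba7 overlapped with each other at that time. Together the 10 genes took a mean of 749 CPM at 0 h, 2948 at 2 h and 7867 at 4 h in WT, and the share of Isg15 in that sum, which is not corrected for length, went from 2.65% to 16.5% and 18.7%.

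LPS raised all 10 genes in WT BMDCs at 2 h and at 4 h. At 2 h all 10 were called higher (adjusted p under 0.05 by edgeR's quasi-likelihood test with Benjamini-Hochberg adjustment, here and below), where 21.3% of all genes tested were, and their median log2 fold change was 1.63 against -0.05 for all genes. At 4 h all 10 were again called higher, where 30.0% of all genes were, with a median of 3.69 against -0.07. From 2 to 4 h all 10 rose further, where 18.6% of all genes did, with a median of 1.74. Scaled by library totals, 9, 10 and 10 of them were called, and Uba7 at 2 h was not (log2 fold change 0.23, adjusted p = 0.368).

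**Figure D1:**
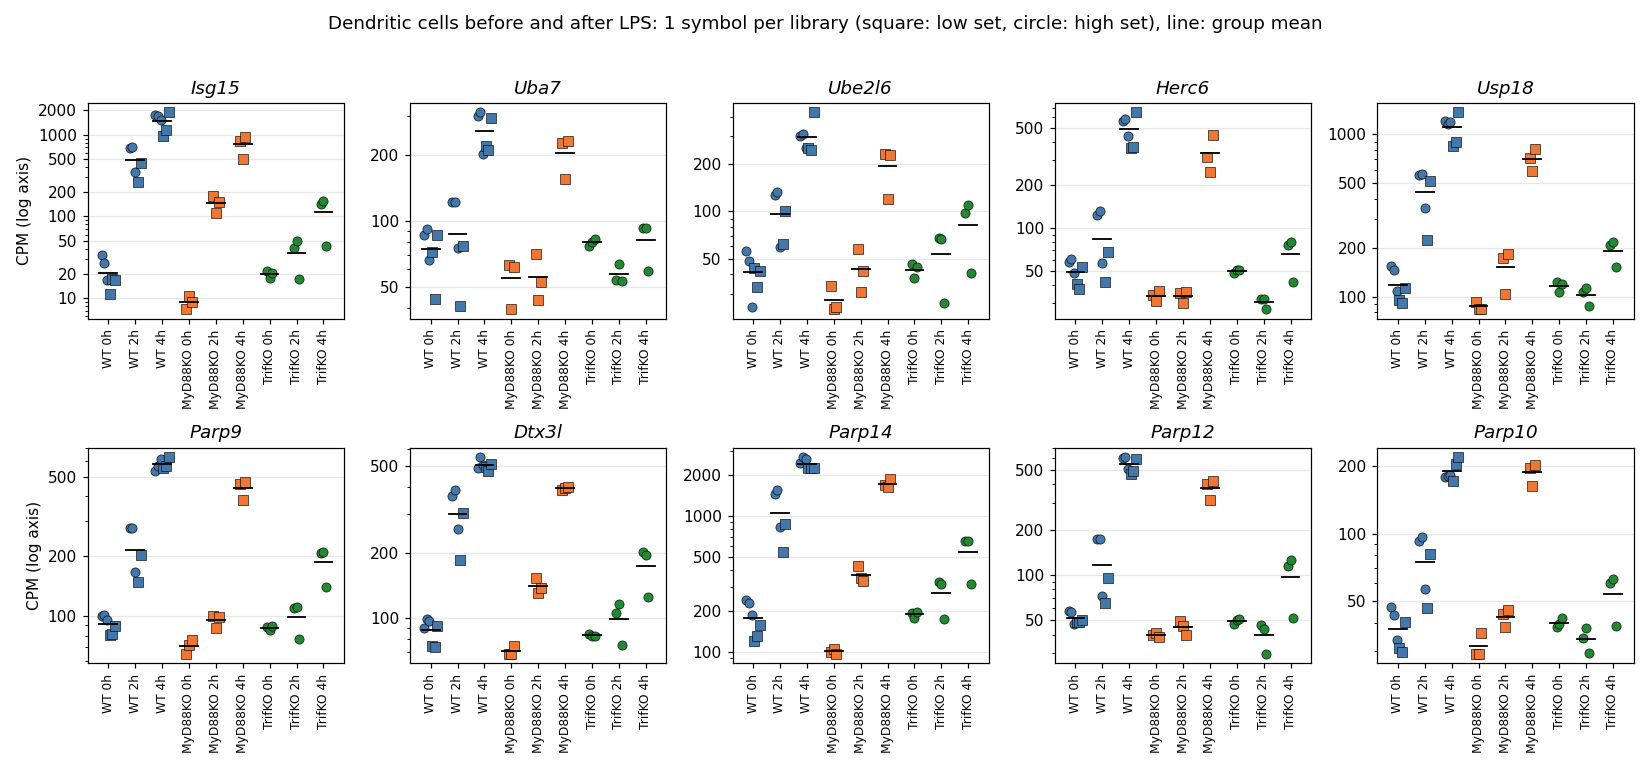
CPM (log axis) of the 10 genes in each library of the LPS experiment, by genotype and hours of LPS, with squares for low-set and circles for high-set libraries and a line at each group mean. WT and MyD88KO libraries rose at 4 h in all 10 panels, for Isg15 to 962 to 1875 CPM in WT and 512 to 932 CPM in MyD88KO, while the libraries labelled TrifKO reached 43.8 to 153 CPM.

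The modifier itself showed the largest change. Isg15 was between 11.3 and 33.9 CPM in the 6 WT libraries at 0 h (median 16.9). The 5 libraries at 2 h held 263, 352, 447, 693 and 703 CPM, and the 6 libraries at 4 h 962 to 1875 CPM with a median of 1609. The 3 times did not overlap. The log2 fold change of Isg15 was 4.99 ± 0.38 SE (31.8-fold, adjusted p = 1e-11) at 2 h and 6.85 ± 0.41 (115-fold, adjusted p = 1.36e-14) at 4 h. Of the 4 h change on the log2 scale, 72.9% was reached at 2 h, more than for any other of the 10.

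The 3 conjugating enzymes reached less of their 4 h change at 2 h, from 26.1% for Uba7 and 29.6% for Herc6 to 46.4% for Ube2l6. Uba7, the E1 activating enzyme, was at 44.1 to 91.6 CPM (median 78.8) at 0 h, at 40.97, 74.7, 76.5, 121 and 121 CPM at 2 h, and at 202 to 311 CPM (median 256) at 4 h. The 2 h libraries of Uba7 overlapped with those at 0 h, and the 4 h libraries stood clear of both. Its log2 fold change was 0.64 ± 0.23 (adjusted p = 0.0254) at 2 h and 2.44 ± 0.23 (adjusted p = 2.85e-10) at 4 h. Ube2l6, the E2 carrier of ISG15, went from 24.6 to 56.1 CPM (median 42.9) through 59.3, 62.0, 101, 127 and 134 CPM to 245 to 425 CPM (median 277), with no overlap between 0 h and 2 h. For Ube2l6 the log2 fold changes were 1.62 ± 0.29 (adjusted p = 3.59e-05) and 3.5 ± 0.30 (adjusted p = 3.9e-11).

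Herc6, the ligase, had the largest rise from 2 to 4 h of the 10 genes (2.80 ± 0.27, adjusted p = 4.8e-09). It was at 37.2 to 60.6 CPM (median 50.8) at 0 h, at 41.6, 56.6, 67.5, 124 and 131 CPM at 2 h and at 366 to 646 CPM (median 501) at 4 h. The 2 h libraries overlapped with those at 0 h, and the 124 and 131 CPM were cohorts 1 and 2 of the high set. Its log2 fold change was 1.18 ± 0.25 (adjusted p = 0.000264) at 2 h and 3.98 ± 0.27 (15.7-fold, adjusted p = 1.75e-13) at 4 h.

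Usp18, the protease that takes ISG15 off, reached 59.3% of its 4 h change at 2 h. Its WT libraries held 91.3 to 155 CPM (median 110.5) at 0 h, 223, 348.5, 513, 563 and 564 CPM at 2 h, and 842 to 1358 CPM (median 1166) at 4 h, with no overlap between times. The log2 fold change of Usp18 was 2.30 ± 0.22 (4.93-fold, adjusted p = 7.68e-10) at 2 h and 3.88 ± 0.23 (14.7-fold, adjusted p = 8.58e-15) at 4 h.

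Of the PARP group, Parp14, which carries macrodomains that bind ADP-ribose, changed most. It was at 119 to 241 CPM (median 171) at 0 h, at 536, 822, 868, 1438 and 1552 CPM at 2 h and at 2220 to 2682 CPM (median 2335) at 4 h. No 2 times overlapped. Its log2 fold change was 2.97 ± 0.25 (7.81-fold, adjusted p = 1.07e-10) and 4.41 ± 0.26 (21.3-fold, adjusted p = 1.57e-14), and 67.2% of the 4 h change was there at 2 h.

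Parp9 and its partner Dtx3l, which overlap at their starts, reached different shares of their 4 h change at 2 h. Parp9 went from 80.3 to 102 CPM (median 92.3) through 148, 166, 204, 277 and 278 CPM to 540 to 629 CPM (median 569.5). Dtx3l went from 73.6 to 99.2 CPM (median 91.4) through 186, 258, 303, 365 and 386 CPM to 473 to 547 CPM (median 498). Neither overlapped between any 2 times. The log2 fold changes were 1.63 ± 0.15 (adjusted p = 8.11e-10) and 3.31 ± 0.16 (adjusted p = 2e-16) for Parp9. For Dtx3l they were 2.17 ± 0.16 (adjusted p = 4.18e-12) and 3.16 ± 0.16 (adjusted p = 4.71e-16). That share was 49.2% for Parp9 and 68.4% for Dtx3l, and the rise from 2 to 4 h was 1.68 ± 0.16 and 1.00 ± 0.16. The shares of the 10 genes were not tested against each other.

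Parp12, a mono-ADP-ribosyltransferase with zinc fingers, was at 47.1 to 57.2 CPM (median 49.2) at 0 h, at 64.9, 71.8, 95.3, 172 and 172 CPM at 2 h, and at 466.1 to 604 CPM (median 546) at 4 h. Its times did not overlap, and the log2 fold changes were 1.58 ± 0.23 (adjusted p = 1.72e-06) and 4.06 ± 0.25 (16.6-fold, adjusted p = 2.15e-14). Parp10 moved least of the transferases, from 29.7 to 47.2 CPM (median 37.0) through 46.3, 56.5, 81.0, 92.9 and 96.3 CPM to 173 to 219 CPM (median 182), with 1 library at 2 h within the range of 0 h. For Parp10 the log2 fold changes were 1.39 ± 0.17 (adjusted p = 7.29e-08) and 2.99 ± 0.17 (adjusted p = 6.28e-15).

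**Figure D2:**
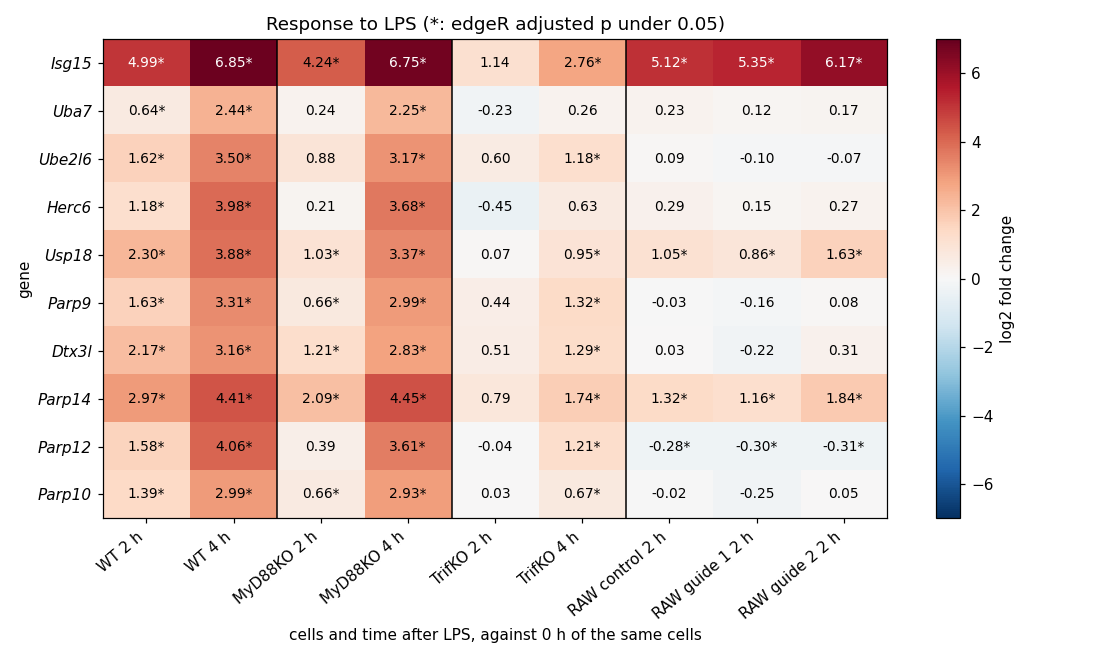
Log2 fold change of the 10 genes (rows) in 9 comparisons of cells after LPS with 0 h of the same cells (columns), with the value printed in each cell and an asterisk where the adjusted p was under 0.05. The WT columns are called throughout, and the column for TrifKO at 2 h has no call.

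Within WT at 2 h, 2 libraries stood above the rest. The highest 2 h values of each of the 10 genes were from cohorts 1 and 2 of the high set, for example 1438 and 1552 CPM of Parp14. Xist was at 1149 and 1179 CPM in these 2 libraries, at 561 CPM in cohort 1 of the low set, and at or near 0 in cohort 3 of both sets. The third high-set library, of cohort 3, lay between the 2 libraries of the low set for 9 genes, among them Parp14 (822 CPM, low set 536 and 868 CPM), and below both for Ube2l6. Macrophage marker sums in WT were 6408 to 12037 CPM at 0 h, 4840 to 10154 CPM at 2 h and 4071 to 8575 CPM at 4 h. Dendritic cell marker sums were 16405 to 22671 CPM at 0 h and 15167 to 24411 CPM at 4 h. The part of these cell types and libraries in the rise was not tested.

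In MyD88KO BMDCs LPS raised part of the 10 genes at 2 h and all of them at 4 h. At 2 h 6 of the 10 genes were called higher (Isg15, Usp18, Parp9, Parp10, Parp14 and Dtx3l), where 8.83% of all genes were. At 4 h all 10 were called higher, where 17.1% of all genes were, with a median log2 fold change of 3.27 against -0.05 for all genes. All 10 also rose from 2 to 4 h, where 7.47% of all genes did. The 2 h count fell to 3 when cohort 1 or 3 at 2 h or cohort 3 at 0 h was left out, and was 4 with library totals, which ended the calls of Parp9 and Parp10. Over all genes, leaving out these libraries gave 1023, 954 and 1008 higher, in the same order, against 1278 with all libraries.

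Isg15 in MyD88KO was at 7.39, 10.7 and 8.94 CPM at 0 h, at 179, 110 and 150 CPM at 2 h, and at 842, 512 and 932 CPM at 4 h (cohorts 1, 2 and 3). Its times did not overlap, and cohort 2 was the lowest after LPS. The log2 fold change of Isg15 was 4.24 ± 0.51 (adjusted p = 7.63e-07) at 2 h and 6.75 ± 0.58 (adjusted p = 4.37e-10) at 4 h. Usp18 stood at 92.5, 84.4 and 84.2 CPM, then 173, 103 and 183 CPM, then 714, 594 and 810.2 CPM, with log2 fold changes of 1.03 ± 0.29 (adjusted p = 0.0126) and 3.37 ± 0.31 (adjusted p = 1.82e-09).

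Herc6 rose between 2 and 4 h. In MyD88KO it was at 33.9, 30.9 and 36.1 CPM at 0 h and at 35.03, 29.8 and 35.7 CPM at 2 h, and then at 314, 248 and 451 CPM at 4 h. The 2 h log2 fold change was 0.21 ± 0.34 (adjusted p = 0.776, 95% interval -0.47 to 0.90, negative with library totals), and the 4 h value 3.68 ± 0.37 (adjusted p = 9.74e-09). Parp12, too, rose mainly after 2 h, from 39.9, 41.3 and 38.3 CPM to 49.4, 45.4 and 39.7 CPM to 405, 313 and 424 CPM, with 0.39 ± 0.31 (adjusted p = 0.479, interval -0.25 to 1.02) at 2 h. Uba7 and Ube2l6 were also not called at 2 h (0.24, interval -0.40 to 0.89, and 0.88, interval 0.07 to 1.69).

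Parp14 in MyD88KO was at 98.7, 105 and 96.6 CPM, then 426, 345 and 330.3 CPM, then 1666, 1621 and 1869 CPM, with log2 fold changes of 2.09 ± 0.34 (adjusted p = 5.23e-05) and 4.45 ± 0.38 (adjusted p = 3.57e-10). Parp9 was at 65.0, 71.5 and 75.8 CPM, then 100.4, 87.8 and 99.6 CPM, then 462, 386 and 472 CPM. Dtx3l was at 68.9, 68.9 and 74.4 CPM, then 153, 131 and 138.5 CPM, then 386, 396 and 400.4 CPM. Neither overlapped between times. Log2 fold changes at 2 h were 0.66 ± 0.21 (adjusted p = 0.0272) for Parp9 and 1.21 ± 0.21 (adjusted p = 0.000125) for Dtx3l.

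Set against WT at the same time, all 10 genes were lower in MyD88KO at 2 h, where 7.03% of all genes were called lower. The log2 differences were -1.98 ± 0.43 for Isg15 (adjusted p = 0.00293), -1.76 ± 0.27 for Usp18 (adjusted p = 0.000117), -1.74 ± 0.31 for Parp14 (adjusted p = 0.000531) and -0.88 ± 0.29 for Uba7 (adjusted p = 0.0428). The CPM of 9 genes lay below all WT libraries, as did 3.37% of all genes, and Uba7 overlapped. At 4 h 8 were called lower, where 14.6% of all genes were. Isg15 was then lower by a log2 difference of -1.32 ± 0.41 (adjusted p = 0.0165) and Parp9 by -0.74 ± 0.18 (adjusted p = 0.00328), and Uba7 (-0.68, adjusted p = 0.0703) and Parp10 (-0.36, adjusted p = 0.179, interval -0.76 to 0.04) were not called.

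Those counts depended on the libraries and the scale used. At 4 h 3 genes were called with library totals (Isg15, Usp18 and Parp9), 3 with WT of the low set only, 3 with a term for the set, 3 without MyD88KO cohort 2 and 5 without cohort 1. Over all genes, these settings called 854, 1149, 1846, 1324 and 1652 lower, in the same order. At 2 h 9 were called with library totals, where Uba7 was not (-0.65, adjusted p = 0.0723), 3 with WT of the low set, and 0 when only the 2 groups compared were fitted (adjusted p between 0.0519 and 0.233). Of all genes, 169 were called lower with WT of the low set and 93 with only the 2 groups. Isg15 at 2 h differed by -1.43 (adjusted p = 0.133) from WT of its own low set and by -2.26 (adjusted p = 0.00085) from WT of the high set. Macrophage marker sums in MyD88KO were 5621 to 13361 CPM at 0 h and 3327 to 10547 CPM at 4 h, and their part was not tested.

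Before LPS 0 of the 10 genes were called in MyD88KO against WT, where 0.0622% of all genes were called in either direction. At unadjusted p under 0.05 there were 3, as were 5.58% of all genes, and DESeq2 called 0. Isg15 was at a log2 difference of -1.23 ± 0.42 (adjusted p = 0.537, 95% interval -2.08 to -0.38) and Parp14 at -0.87 ± 0.29 (adjusted p = 0.537). The difference in response, that is the MyD88KO fold change minus that of WT, was called lower for 0 genes at 2 h, where 0.387% of all genes were (7 at unadjusted p under 0.05, as were 8.90% of all genes, and 3 by DESeq2). With set and cohort as a replicate block, where cohort numbers pair the libraries of MyD88KO and of the high WT set but not by rule those of the low WT set, 4 were called lower: Usp18 (-1.18, adjusted p = 0.0082), Dtx3l (-0.87, adjusted p = 0.0098), Parp9 (-0.89, adjusted p = 0.0118) and Parp12 (-1.04, adjusted p = 0.0481). Without the block it was called lower for 0 at 4 h, where 4.39% of all genes were (0 at unadjusted p under 0.05, against 20.5% of all genes, and 0 by DESeq2). For Usp18 the 2 h response difference was -1.27 ± 0.36 (adjusted p = 0.119, interval -2.0 to -0.54), and for Isg15 at 4 h -0.09 ± 0.55 (adjusted p = 0.953, interval -1.23 to 1.04). At 4 h the values ran from -0.51 for Usp18 to 0.03 for Parp14, and with library totals those of Isg15, Uba7, Herc6 and Parp10 turned positive. At 2 h, leaving out cohort 1 of the low WT set gave 3 calls and leaving out cohort 3 of the high WT set gave 1. Over all genes, 150 and 68 were called lower in these 2 fits, against 56 with all libraries.

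In the libraries labelled TrifKO the 10 genes had no call at 2 h and rose less than in WT at 4 h. At 2 h 0 were called higher, where 11.3% of all genes were (4 at unadjusted p under 0.05, as were 32.3% of all genes, and 1 by DESeq2). At 4 h 8 were called higher (all but Uba7 and Herc6), where 14.4% of all genes were, with a median of 1.2 against 0.00 for all genes. From 2 to 4 h Parp9 and Parp12 were called, where 0.594% of all genes were (8 at unadjusted p under 0.05, as were 12.7% of all genes, and 4 by DESeq2).

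Isg15 in TrifKO was at 21.3, 17.5 and 20.25 CPM at 0 h, at 41.5, 49.6 and 17 CPM at 2 h and at 143, 153 and 43.8 CPM at 4 h (cohorts 1, 2 and 3). Cohort 3, the one with low Ticam1 at 2 and 4 h, was below the range of 0 h at 2 h and the lowest library at 4 h. The log2 fold change of Isg15 was 1.14 ± 0.46 (adjusted p = 0.0742, interval 0.21 to 2.07) at 2 h and 2.76 ± 0.48 (6.76-fold, adjusted p = 9.63e-05) at 4 h. Without cohort 3, chosen after seeing the data, it was 1.51 ± 0.48 (adjusted p = 0.0319) and 3.16 (adjusted p = 0.000117).

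Parp14 in TrifKO was at 193, 177 and 196 CPM, then 326, 313 and 174 CPM, then 646, 656 and 315 CPM, with cohort 3 again the lowest after LPS. Its log2 fold changes were 0.79 ± 0.33 (adjusted p = 0.0875, interval 0.12 to 1.46) and 1.74 ± 0.33 (adjusted p = 0.000303). Dtx3l was at 85.1, 82.7 and 83.2 CPM, then 106, 117 and 75.2 CPM, then 202, 195 and 126 CPM, and Parp9 ran from 88.8, 85.2 and 89.8 CPM to 208, 211 and 141 CPM at 4 h. Without cohort 3, 3 genes were called at 2 h, Isg15, Parp14 (1.07, adjusted p = 0.0458) and Dtx3l (0.69, adjusted p = 0.0385), against 8 at 4 h and 0 from 2 to 4 h. Over all genes, that setting called 1191 higher at 2 h and 19 higher from 2 to 4 h.

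In TrifKO, Herc6 was at 48.5, 50.5 and 50.8 CPM at 0 h, at 32.0, 32.0 and 27.2 CPM at 2 h and at 75.8, 80.0 and 41.8 CPM at 4 h. All 3 libraries at 2 h were below those at 0 h, with a log2 fold change of -0.45 (adjusted p = 0.379, interval -1.14 to 0.24), called only when the fit held just these groups (-0.47 ± 0.10, adjusted p = 0.015). CPM at 2 h were also below 0 h in every library for Uba7, Parp10 and Parp12, as for 45.3% of all genes, and none of these was called, though Parp10 was at 0.03 on the TMM scale and negative with library totals. Usp18 was at 123, 107 and 119.5 CPM, then 106.5, 112 and 87.1 CPM, then 208, 216 and 152 CPM, with 0.07 (adjusted p = 0.895, interval -0.51 to 0.66, negative with library totals) at 2 h and 0.95 ± 0.29 (adjusted p = 0.0142) at 4 h. Uba7 was at 0.26 ± 0.32 at 4 h (adjusted p = 0.592, interval -0.38 to 0.91) and Herc6 at 0.63 ± 0.34 (adjusted p = 0.175, interval -0.06 to 1.32). With library totals 6 genes were called at 4 h, without Ube2l6 (adjusted p = 0.0531) and Parp10 (adjusted p = 0.117), and 5 without cohort 1 or 2 at 4 h or cohort 2 at 0 h. Over all genes, leaving out these libraries gave 1503, 1655 and 1430 higher, in the same order, against 2080 with all libraries.

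**Figure D3:**
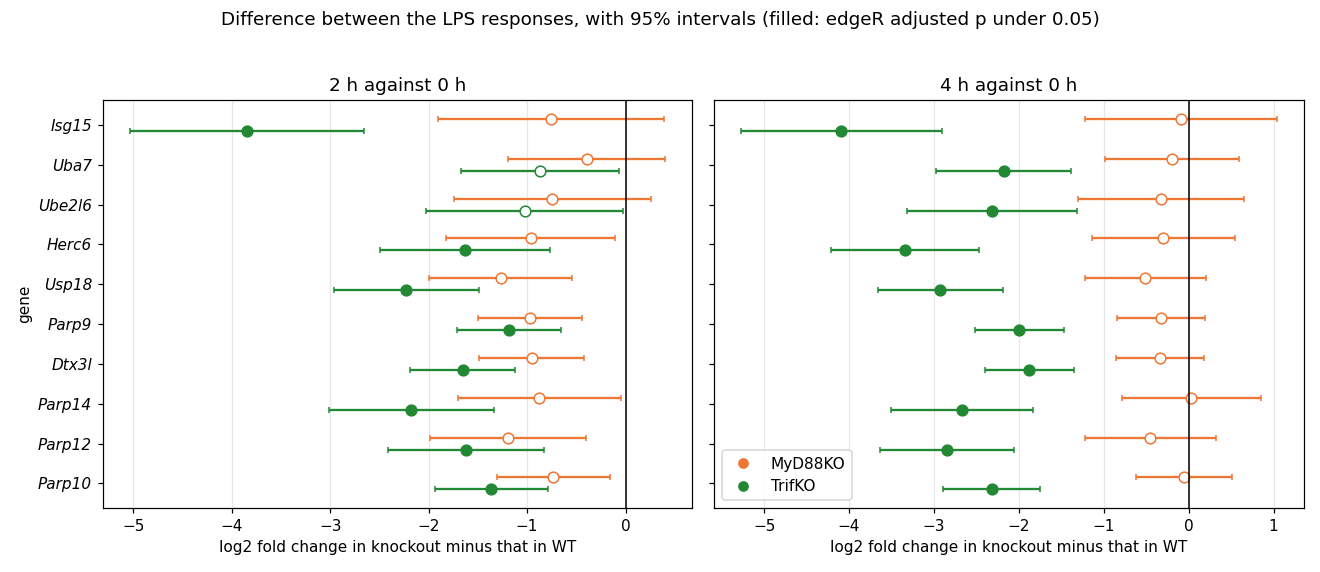
Difference in LPS response from WT (log2 fold change in the knockout minus that in WT, x axis) for each gene at 2 h and 4 h, with 95% intervals and filled points where the adjusted p was under 0.05. All 10 TrifKO points at 4 h are filled, from -4.09 for Isg15 to -1.88 for Dtx3l, and no MyD88KO point is filled in this fit, which has no replicate block.

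The LPS response of all 10 genes was smaller in TrifKO than in WT at 4 h. The difference in response was called lower for 8 genes at 2 h, where 1.25% of all genes were, with a median of -1.63. At 4 h it was called lower for 10, where 9.30% of all genes were, with a median of -2.50 against 0.06 for all genes. For Isg15 it was -3.85 ± 0.58 (adjusted p = 0.000111) at 2 h and -4.09 ± 0.58 (adjusted p = 6.26e-06) at 4 h. For Herc6 it was -1.63 (adjusted p = 0.0428) and -3.34 ± 0.43 (adjusted p = 1.38e-06), the second largest at 4 h. For Usp18 it was -2.23 ± 0.36 (adjusted p = 0.000295) and -2.93 ± 0.36 (adjusted p = 8.25e-07). Uba7 and Ube2l6 were not called at 2 h (-0.87, interval -1.67 to -0.06, and -1.03, interval -2.02 to -0.03) and were called at 4 h (-2.18 ± 0.39 and -2.32 ± 0.49).

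Among the PARPs, the TrifKO response at 4 h differed from that of WT by -2.85 ± 0.39 for Parp12, -2.67 ± 0.41 for Parp14, -2.32 ± 0.28 for Parp10, -2.0 for Parp9 and -1.88 ± 0.26 for Dtx3l. Without cohort 3, 10 genes were still called at 4 h, and at 2 h 4 were (Isg15, Usp18, Parp14 and Dtx3l). Leaving out only the 2 h library of cohort 3 gave 5 at 2 h. Over all genes, 108 and 124 were called lower at 2 h in these 2 fits. Without cohort 3, which leaves 2 libraries per time, the 4 genes no longer called at 2 h were at -1.52 (Herc6), -0.9998 (Parp9), -1.21 (Parp10) and -1.42 (Parp12).

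Before LPS, log2 differences of TrifKO from WT ran from -0.04 for Dtx3l to 0.14 for Uba7, with that of Usp18 changing sign under library totals, and 0 genes were called in either direction, where 0% of all genes were (0 at unadjusted p under 0.05, against 3.56% of all genes, and 0 by DESeq2). For Isg15 the difference was -0.02 ± 0.39 (95% interval -0.82 to 0.78). At 2 h 8 were lower than WT, where 2.54% of all genes were called lower, and at 4 h all 10, where 15.6% of all genes were. Isg15 was lower by a log2 difference of -3.87 ± 0.48 (14.7-fold lower, adjusted p = 1.93e-06) at 2 h and of -4.12 ± 0.49 (17.3-fold lower, adjusted p = 1.08e-07) at 4 h. At 4 h all 10 lay below all WT libraries, as did 6.52% of all genes. The comparisons of levels and of responses share the same libraries and are not independent of each other. Against WT of the high set alone, where all TrifKO libraries are, Isg15 was at -4.15 (adjusted p = 3.73e-06) and -4.31 (adjusted p = 4.1e-07), with 9 and 10 genes called. Without cohort 3 it was at -3.52 (adjusted p = 2.3e-05) and -3.73 (adjusted p = 1.95e-06), with 8 and 10 called. The shares of 2.54% and 15.6% of all genes belong to the fit with all libraries and not to these 2 fits. Fitting only the groups compared called 2 of the 10 genes lower at 2 h, and 99 of all genes. In TrifKO at 4 h, macrophage marker sums were 7364 to 10614 CPM, against 4071 to 8575 CPM in WT, and dendritic cell marker sums 14375 to 22881 CPM, and their part was not tested.

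Between the knockouts, 1 gene was called at 2 h and all 10 at 4 h. At 2 h Isg15 was lower in TrifKO than in MyD88KO (-1.89 ± 0.46, adjusted p = 0.0197), where 1.32% of all genes were called lower, and the other 9 ran from -0.46 for Usp18 to 0.44 for Ube2l6. That call was lost when cohort 1 or 3 at 2 h of either knockout was left out. At 4 h all 10 were lower in TrifKO, where 6.09% of all genes were, and lay below all MyD88KO libraries, as did 10.2% of all genes. The 4 h differences were -2.79 ± 0.48 for Isg15 (adjusted p = 0.000121), -2.40 ± 0.35 for Herc6 (adjusted p = 1.49e-05) and -1.22 for Dtx3l, the smallest. Without cohort 3, 1 gene was called at 2 h and 9 at 4 h, where Ube2l6 was lost (adjusted p = 0.106). All TrifKO libraries are in the high and all MyD88KO libraries in the low set, so set and genotype cannot be told apart here.

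In unstimulated BMDCs, Isg15 had lower CPM in the groups labelled IfnarKO. It was at 10.4, 8.03 and 24 CPM in WT and at 2.19, 1.85 and 3.77 CPM in IfnarKO (cohorts 1, 2 and 3). With Suv39h1 deleted it was at 11.03, 10.4 and 32.8 CPM with the receptor and at 2.78, 3.49 and 6.86 CPM in DKO. The receptor groups did not overlap in either pair, and cohort 3 was the highest in all 4 groups. Within cohorts the log2 ratio of CPM was -2.25, -2.12 and -2.67 for IfnarKO over WT and -1.99, -1.58 and -2.26 for DKO over Suv39h1KO.

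**Figure D4:**
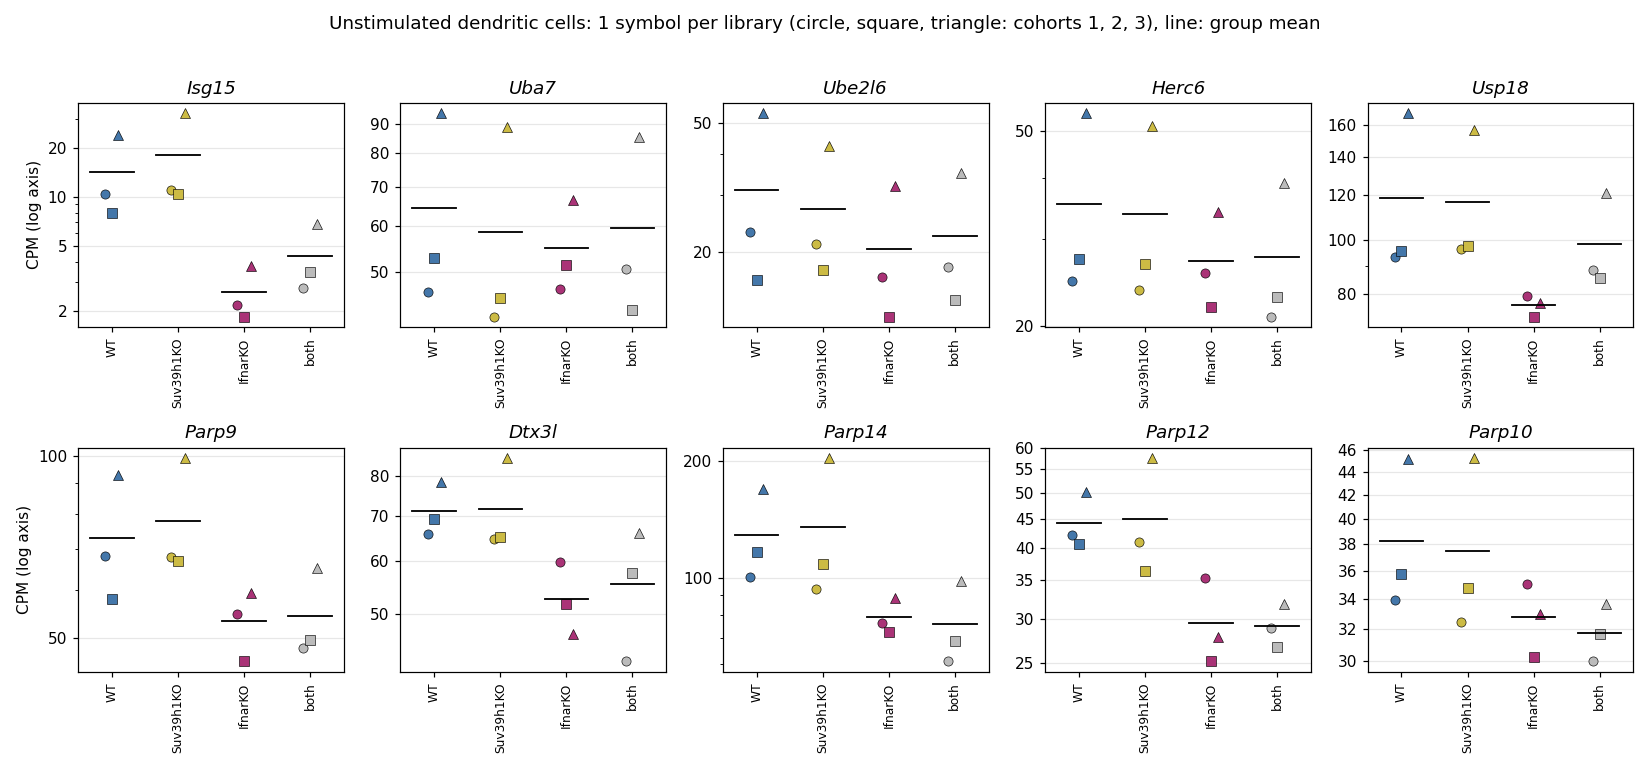
CPM of the 10 genes in the unstimulated BMDC libraries, with 1 symbol per cohort and a line at each group mean. Cohort 3 was the highest library of Isg15 in every group, and the IfnarKO and DKO libraries lay between 1.85 and 6.86 CPM, below all libraries with the receptor (8.03 to 32.8 CPM).

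The test without cohort did not call it. Isg15 was at a log2 fold change of -2.43 ± 0.58 (adjusted p = 0.445, 95% interval -3.70 to -1.17) in IfnarKO and -2.03 ± 0.56 (adjusted p = 0.529, interval -3.26 to -0.80) in DKO against Suv39h1KO. In IfnarKO 0 of the 10 genes were called lower, where 0.118% of all genes were, with 5 at unadjusted p under 0.05, as were 2.00% of all genes, and 1 by DESeq2 (Isg15, adjusted p = 0.000884). In DKO against Suv39h1KO 0 were called lower, where 0.153% of all genes were, with 5 at unadjusted p under 0.05, as were 4.80% of all genes, and 1 by DESeq2 (Isg15, adjusted p = 0.0136). With the cohort as a replicate block, Isg15 was called in both (-2.34 ± 0.17, adjusted p = 4.6e-05, and -1.94 ± 0.16, adjusted p = 0.000111). In DKO the block also gave calls for Parp14 (-0.78 ± 0.12, adjusted p = 0.00898), Parp9 (-0.51 ± 0.09, adjusted p = 0.0183) and Parp12 (-0.60 ± 0.12, adjusted p = 0.0328). Over all genes, the block called 53 lower in IfnarKO against WT and 145 lower in DKO against Suv39h1KO.

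Other genes also had lower CPM in the groups labelled IfnarKO. Parp14 was at 100.2, 116 and 169 CPM in WT and 76.2, 72.5 and 88.4 CPM in IfnarKO, and at 93.6, 108 and 204 CPM in Suv39h1KO and 60.8, 68.6 and 98.0 CPM in DKO. Parp12 was at 42.1, 40.5 and 50 CPM in WT and 35.4, 25.2 and 27.9 CPM in IfnarKO. Neither overlapped with WT, below which 2.16% of all genes lay without overlap, though Parp14 in DKO overlapped with Suv39h1KO. Usp18 was at 93.1, 95.4 and 168 CPM in WT and 79.6, 73.1 and 77.2 CPM in IfnarKO, with a log2 fold change whose 95% interval ran from -1.17 to -0.07 and no call. In all 3 cohorts 7 of the 10 genes were lower in IfnarKO than WT (not Uba7, Herc6 and Parp10), as were 13.6% of all genes, and 9 of 10 were lower in DKO than Suv39h1KO (not Uba7), as were 22.1% of all genes. Macrophage marker sums were 9207 to 12075 CPM in WT and 12969 to 18004 CPM in IfnarKO, without overlap, and 7702 to 9254 CPM in Suv39h1KO and 11132 to 14593 CPM in DKO. Their part in these values was not tested.

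Deletion of Suv39h1 itself gave no call. In Suv39h1KO against WT 0 of the 10 were called, where 0.209% of all genes were called in either direction, and in DKO against IfnarKO 0 were, where 0.222% of all genes were (0 at unadjusted p under 0.05, against 4.39% and 5.85% of all genes, and 0 by DESeq2 in both). Isg15 was at a log2 fold change of 0.35 ± 0.54 (interval -0.83 to 1.53) and 0.75 ± 0.56 (adjusted p = 0.951, interval -0.47 to 1.98). In the interaction of both deletions 0 were called, where 0% of all genes were (0 at unadjusted p under 0.05, against 0.702% of all genes, and 0 by DESeq2), and for Isg15 it was 0.40 ± 0.77 (interval -1.29 to 2.10).

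In RAW264.7 macrophages 3 of the 10 genes were called higher and 1 lower after 2 h of LPS. Per kilobase, Ube2l6 was the highest in unstimulated gCtrl cells at a mean of 19.7 CPM per kb, followed by Parp12 at 12.3, and Herc6 was the lowest at 0.462. In gCtrl the 3 that rose were Isg15, Parp14 and Usp18, where 26.3% of all genes were called higher, and the 1 that fell was Parp12, where 25.3% of all genes were called lower. The members' median log2 fold change was 0.16 against 0.00 for all genes, and DESeq2 also called 3 higher and 1 lower.

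**Figure D5:**
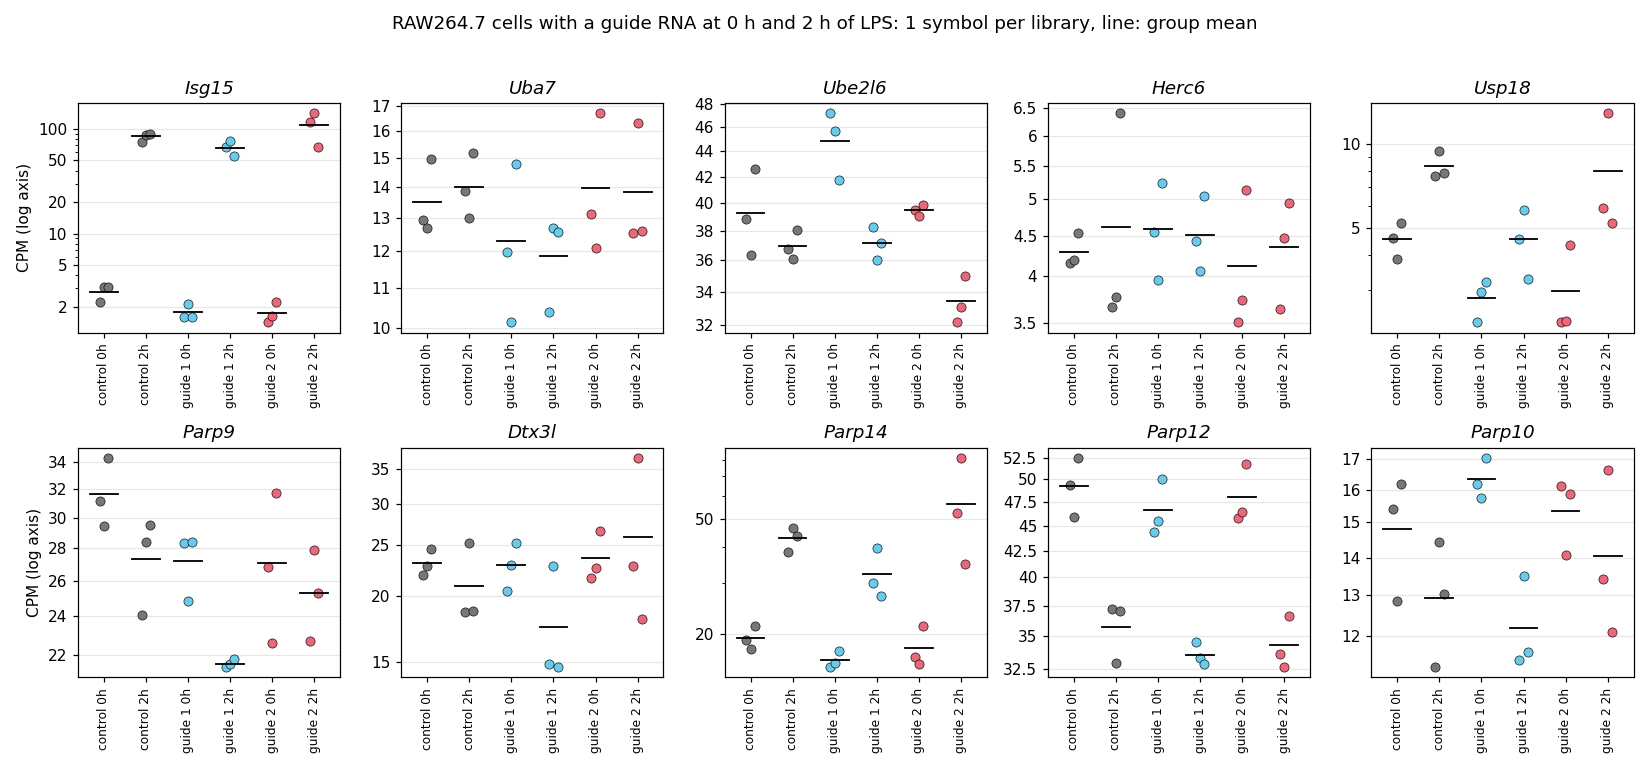
CPM of the 10 genes in the 18 RAW264.7 libraries, by guide and hours of LPS, with a line at each group mean. Isg15 went from 1.43 to 3.10 CPM at 0 h to 55.1 to 141 CPM at 2 h over the 3 guides, and Parp12 was lower at 2 h than at 0 h in every guide group.

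In gCtrl, Isg15 was at 2.20, 3.10 and 3.08 CPM before LPS and 75.5, 87.9 and 90.2 CPM after 2 h, a log2 fold change of 5.12 ± 0.26 (34.8-fold, adjusted p = 3.57e-11). Parp14 went from 19.1, 17.8 and 21.2 CPM to 38.2, 46.4 and 43.7 CPM (1.32 ± 0.22, adjusted p = 7.77e-05). Usp18 went from 4.61, 3.87 and 5.21 CPM to 7.70, 9.42 and 7.87 CPM (1.05 ± 0.30, adjusted p = 0.00787). All 3 stood above all their 0 h libraries, as did 17.8% of all genes, while 47.9% of all genes lay below theirs. Parp12, which rose in BMDCs, fell from 49.4, 45.9 and 52.5 CPM to 37.2, 32.96 and 37.1 CPM (-0.28 ± 0.07, adjusted p = 0.00182). Herc6 was at 4.16, 4.19 and 4.53 CPM before LPS and 3.66, 3.77 and 6.41 CPM after 2 h. The 6 log2 fold changes that were not called ran from -0.03 for Parp9 to 0.29 for Herc6, with those of Ube2l6 and Dtx3l negative under library totals. BMDC and RAW264.7 libraries were fitted apart, and the difference between them was not tested.

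The same 4 genes were called with guide 1 (3 higher, where 26.2% of all genes were, and 1 lower, where 25.1% were) and with guide 2 (3 higher, where 26.3% were, and 1 lower, where 24.5% were). Isg15 rose by a log2 fold change of 5.35 ± 0.27 (adjusted p = 3.24e-11) with guide 1, from 1.60, 2.14 and 1.61 CPM to 66.8, 76.1 and 55.1 CPM. With guide 2 it rose by 6.17 ± 0.27 (adjusted p = 5.81e-12), from 1.43, 1.62 and 2.22 CPM to 116, 141 and 66.5 CPM. With library totals guide 1 had 2 higher (Isg15 and Parp14) and 4 lower (Ube2l6, Parp9, Parp10 and Parp12), and guide 2 had 3 higher and 2 lower (Ube2l6 and Parp12). Under that scaling the median log2 fold change of all genes was -0.176 with guide 1 and -0.178 with guide 2. In CPM, 46.8% of all genes with guide 1 and 45.6% with guide 2 lay below all their 0 h libraries.

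No gene was called between a guide and gCtrl. At 0 h 0 were called with guide 1, where 2.24% of all genes were called in either direction (2 at unadjusted p under 0.05, against 13.3% of all genes, and 1 by DESeq2), and 0 with guide 2, where 4.53% were (1, against 18.7%, and 0). At 2 h 0 were called with guide 1, where 3.08% were (2, against 15.5%, and 1), and 0 with guide 2, where 5.96% were (1, against 20.97%, and 0). The differences in response gave 0 for guide 1, where 0.00765% of all genes were called, and 0 for guide 2, where 0% were (1 at unadjusted p under 0.05 for each, against 2.26% and 3.43% of all genes, and 0 by DESeq2). The gene called by DESeq2 at 0 h was Ube2l6 (adjusted p = 0.0491), at 47.2, 45.6 and 41.7 CPM with guide 1 against 38.8, 36.3 and 42.6 CPM in gCtrl. At 2 h it was Parp9 (adjusted p = 0.0457), at a log2 difference of -0.34 ± 0.11 in edgeR (adjusted p = 0.0983, interval -0.57 to -0.12). For guide 2 the response of Isg15 was 1.05 ± 0.37 larger than in gCtrl (adjusted p = 1, interval 0.27 to 1.83). The controls are shared between the guides.

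Over all 19 groups, the mean of Isg15 was highest in WT at 4 h (1493 CPM), followed by MyD88KO at 4 h (762 CPM), WT at 2 h (492 CPM), MyD88KO at 2 h (146 CPM) and TrifKO at 4 h (113 CPM). RAW264.7 cells at 2 h came next (66.01 to 108 CPM), and guide 2 at 0 h was lowest (1.76 CPM). Of the 18 neighbouring pairs in that order 14 overlapped in their libraries, and those apart followed WT at 4 h, WT at 2 h, guide 1 at 2 h and MyD88KO at 0 h. The experiments were normalised apart, so this order sets CPM side by side. WT at 4 h had the highest mean for all 10 genes, though its libraries overlapped with those of MyD88KO at 4 h for Uba7, Herc6 and Parp10.

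As a description over the 19 group means, which share libraries' depth and the 2 cell types, Parp9 followed the mean of the other members most closely (Pearson r = 0.988) and Isg15 least (r = 0.711), and among pairs Uba7 and Herc6 were the closest (r = 0.991), followed by Parp9 and Dtx3l (r = 0.987), while Ube2l6 and Usp18 were the least close (r = 0.495). The 6 other genes of 12325 whose pattern was most like the mean pattern of the 10 were Ifi35 (r = 0.991), Zup1 (0.989), Ifi47 (0.988), Sppl2a (0.987), Tapbp (0.986) and Pnp (0.984).

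Related genes were taken from 5 lists, to be read against 30.0% of all genes called higher and 35.1% called lower at 4 h in WT, with a median of -0.07. Of 8 genes reported as partners or targets of ISG15, 4 were higher and 2 lower at 4 h of LPS in WT (median 0.20), and 2 higher and 6 lower with library totals. Trim25, an antiviral ubiquitin ligase, rose by 1.61 ± 0.14 (adjusted p = 3.74e-11, from a mean of 302 to 587 CPM), and Skp2, an F-box protein, fell (-2.07 ± 0.26, adjusted p = 5.02e-08). Of 12 other PARPs, 7 were higher and 4 lower (median 0.47), and 4 higher and 6 lower with library totals. Parp11, also a mono-ADP-ribosyltransferase, rose by 2.17 ± 0.16 (adjusted p = 8.11e-13, 38.6 to 110 CPM) and Zc3hav1, the antiviral zinc finger protein ZAP, by 2.02 ± 0.13 (adjusted p = 7.07e-14). Parp1, the main PARP of the DNA damage response, fell from 89.2 to 19.2 CPM (-1.59 ± 0.14, adjusted p = 9.67e-11).

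Of 6 enzymes that remove ADP-ribose, 2 were higher and 2 lower at 4 h in WT (0 and 5 with library totals). Of 26 tested genes of the ubiquitin, SUMO, NEDD8 and related systems, 17 were higher and 5 lower (5 and 14 with library totals), among them Ufm1, another ubiquitin-like modifier, at 1.96 ± 0.09 (adjusted p = 1.84e-16). Of 11 genes of type I interferon signalling, 10 were higher and 1 lower (7 and 2 with library totals, median 1.84). Ifnb1, which encodes interferon beta, went from a mean of 0.0593 to 4.15 CPM (6.74 ± 0.50, adjusted p = 1.47e-12), and Irf7, a transcription factor of the interferon loop, from 17.04 to 627 CPM (5.86 ± 0.37, adjusted p = 5.4e-14). Stat2, which carries the receptor's signal, rose by 2.78 ± 0.20.

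In TrifKO the response at 4 h was lower than in WT for 6 of the 11 interferon signalling genes (median -0.92), where 9.30% of all genes were lower and 8.99% higher (median 0.06), among them Irf7 (-4.21, adjusted p = 2.15e-06) and Ifnb1 (-4.24, adjusted p = 0.0253), and for 6 of the 12 other PARPs (1 was higher), among them Parp11 (-2.10, adjusted p = 1.3e-06) and Zc3hav1 (-1.21, adjusted p = 0.000173). With library totals 6 and 3 were lower and 2 and 6 higher. Without cohort 3, 5 interferon signalling genes and 3 other PARPs were lower and 0 higher in both lists, with Irf7 at -3.83, Parp11 at -2.01 and Zc3hav1 at -1.11, and Ifnb1 was no longer called (-4.06, adjusted p = 0.0663). In IfnarKO against WT without LPS, 1 interferon signalling gene was called, Irf7 (-3.64 ± 0.45, adjusted p = 0.00578). In gCtrl RAW264.7 cells at 2 h Ifnb1 rose by 6.56 ± 0.81 (adjusted p = 2.87e-06), while Irf7 was not called (0.42, adjusted p = 0.0748).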

How the data were processed

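Counts per gene for 65 libraries were deposited as one table of raw counts by the authors, who used STAR, HOMER and DESeq2 with mm10 per the submitters' processing notes. Versions, the annotation and the use of strand in counting were not given in the sources used here. The TruSeq Stranded kit was used per the labels. Groups and cohorts were taken from the labels. No 2 libraries of a group were identical.

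Each experiment was fitted on its own in R 4.3.3 with edgeR 4.0.16 (filterByExpr, TMM, quasi-likelihood F test, 1 term per group), and p-values were adjusted by Benjamini-Hochberg over all genes tested, with a threshold of 0.05. SE is the log2 fold change over the root of F. The test was tried first on simulated counts. Alternatives were DESeq2 1.42.0, no filter, other groups in the fit, blocks, library sets and leaving out each library. Scaling by library totals and TrifKO without cohort 3 were added after seeing the data. Positions and exonic lengths are from GENCODE vM21.

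The members and gene lists were chosen with earlier results of these data known. Named were all 10 members, up to 4 genes past the threshold per other list with the largest change in WT at 4 h and up to 2 that did not pass, the 6 genes most alike, and genes that check a label.

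Deviations of libraries of one cohort from their group means correlated in unstimulated BMDCs (mean r = 0.451, lowest 0.268), in MyD88KO (0.589, lowest 0.484) and in WT of the high set (0.450, lowest 0.315), so the cohort pairs those samples. By the rule used here, that every such correlation be over 0.1, it does not in WT of the low set (mean 0.385, lowest 0.024), TrifKO (0.129, lowest -0.264) or RAW264.7 (0.123, lowest 0.00341).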

Additional observations from a re-analysis of the deposited data

Results flagged for a closer look

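Among 30 checks of a single library in groups of 4 or more, 1 library stood apart: Ube2l6 at 425 CPM in one WT library at 4 h, in cohort 3 of the low set, with a gap to the next of 0.644 of the group's range. Chance marks about 1 in 20 such groups.

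The LPS response differed between TrifKO and WT by a tested interaction, given here as the difference of log2 fold changes. At 2 h it was -3.85 for Isg15, -1.63 for Herc6, -2.23 for Usp18, -1.19 for Parp9, -1.36 for Parp10, -1.63 for Parp12, -2.18 for Parp14 and -1.65 for Dtx3l. At 4 h it was -4.09 for Isg15, -2.18 for Uba7, -2.32 for Ube2l6, -3.34 for Herc6, -2.93 for Usp18, -2.0 for Parp9, -2.32 for Parp10, -2.85 for Parp12, -2.67 for Parp14 and -1.88 for Dtx3l.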

How the results depend on the processing

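Of 5800 recomputed values for single genes, 5539 kept their side of the threshold, 173 lost and 88 gained a call, and 0 called values changed sign. Counts of genes called that moved by more than 1.5 times were as follows, and the cause was not tested. Number pairs in brackets are calls in the same direction over all genes, in that setting and then in the fit used above. DESeq2 called 1 in TrifKO at 2 h against 0 h, 4 in TrifKO at 4 h against 2 h, 3 in the MyD88KO response difference at 2 h, 1 each in IfnarKO against WT and DKO against Suv39h1KO, and 1 each for guide 1 against gCtrl at 0 and 2 h. TrifKO without cohort 3 gave 3 at 2 h against 0 h (1191 and 1635) and 0 at 4 h against 2 h (19 and 86). In the response difference at 2 h it gave 4 (108 and 181). The cohort as a replicate block gave 1 in IfnarKO (53 and 17) and 4 in DKO (145 and 22). For guide 1 it gave Ube2l6 at 0 h (495 and 137) and Parp9 and Usp18 at 2 h (524 and 193), though the cohort number does not pair the RAW264.7 samples. The replicate block of set and cohort gave 4 in TrifKO at 2 h (2469 and 1635). At 4 h against 2 h it gave 8 (555 and 86). In TrifKO against MyD88KO at 2 h it gave 4 (249 and 191). The cohort number does not pair the TrifKO libraries either, so no conclusion is drawn from these TrifKO counts. In the MyD88KO response difference at 2 h the block of set and cohort gave 4. Neither block moved another count that far. Without the filter, TrifKO at 4 h against 2 h had 1 (54 and 86). With only the groups compared, TrifKO had 1 lower at 2 h (2255 and 1362) and 0 at 4 h against 2 h (0 and 86). Against WT at 2 h, MyD88KO had 0 (93 and 1017) and TrifKO 2 (99 and 368). The TrifKO response difference at 2 h had 4 (127 and 181), TrifKO against MyD88KO at 2 h 0 (8 and 191) and guide 1 at 0 h 1 lower (259 and 156). A term for the set gave 3 in TrifKO at 2 h (1844 and 1635) and 4 at 4 h against 2 h (148 and 86). In MyD88KO against WT at 4 h it gave 3 (1846 and 2117). Summing WT libraries of a cohort gave 3 in TrifKO at 2 h (1978 and 1635) and 7 at 4 h against 2 h (290 and 86). In the MyD88KO response difference at 2 h it gave 1 (81 and 56). WT of the high set only gave 1 in MyD88KO against WT at 0 h (241 and 5) and 2 in its response difference at 2 h (164 and 56). WT of the low set only gave 3 in MyD88KO against WT at 2 h (169 and 1017) and 3 at 4 h (1149 and 2117). In the TrifKO response difference at 2 h it gave 4 (87 and 181). Library totals gave 3 in MyD88KO against WT at 4 h (854 and 2117). Leaving out single libraries gave 3 to 9 in MyD88KO against WT at 4 h, 3 to 5 in MyD88KO at 2 h, 0 to 3 in its response difference at 2 h, 0 to 4 in TrifKO at 2 h, 5 to 8 at 4 h, 0 to 5 at 4 h against 2 h (0 without cohort 1 or 2 at either time or cohort 3 at 2 h), 5 to 8 in its response difference at 2 h, 0 to 1 in TrifKO against MyD88KO at 2 h, 0 to 1 for guide 1 at 0 h (1 without gCtrl cohort 3) and 0 to 2 for guide 2 at 2 h (2 without its cohort 3). Counts over all genes moved in these fits too. For example, MyD88KO at 2 h had 954 higher without its cohort 3 at that time, against 1278 with all libraries. TrifKO at 4 h against 2 h had 143 higher without cohort 3 at 4 h, against 86. Most groups have 3 libraries, which limits the precision to the printed intervals.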
